A study of Drosophila melanogaster with 2 samples.

Results

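The pair-rule genes and engrailed are described here by where REPTOR was found in their surroundings. The 10 genes are eve, h, run, ftz and odd, the secondary pair-rule genes prd, slp1 and slp2, the later-acting opa, and the segment gene en, out of 13945 protein-coding genes on the chromosome arms. They were taken as a named list. The data were ChIP-seq peak lists from whole Drosophila melanogaster embryos of both sexes, 0 to 24 h old, from a transgenic line stably carrying CG13624 (REPTOR) fused to GFP at its C terminus, pulled down with an antibody against GFP. The series had 1 group with 2 biological replicates, numbered 1 and 3 by the labels, and both carried the same transgene. The promoter that drove the fusion is not given in the labels. A possible control experiment is named there, and it was not analysed here.

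REPTOR is a bZIP transcription factor that is held in check by the growth kinase TORC1. The pair-rule genes divide the early embryo into repeating units: the primary ones are set up in stripes by maternal and gap factors, the secondary ones read the primary pattern, and together they position the narrow stripes of segment polarity genes such as en. Their stripes are controlled by enhancers spread over several kilobases around each gene and last only part of embryogenesis, and many of them are used again later, in the nervous system for example. An embryo pool of this age range mixes all of these stages and tissues, and a site bound in few cells cannot be told apart from a site bound weakly in many.

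REPTOR peaks were called near h, slp2 and en, and the strongest of them lay away from the start sites. The optimal list, the calls on both replicates together that passed the authors' threshold on replicate reproducibility, held 5321 peaks, and 5 of their summits fell inside or within 5 kb of the genes. They belonged to 3 of the 10 genes, with 2 summits at h, 1 at slp2 and 2 at en, where 55.3% of all protein-coding genes had at least 1. That comparison turns with the way summits are assigned: with each summit given to its nearest gene alone, the same 3 of 10 genes (30%) stood beside 24.3% of all genes. A summit within 1000 bp of a transcription start site (TSS) was found for en alone, 1 of 10, beside 30.3% of all genes (21.7% with the nearest gene alone). At 7 genes, eve, run, ftz, odd, prd, slp1 and opa, no optimal summit came within 5 kb. With 1 group and 2 replicates no test was made, and these shares are descriptions of the lists.

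The stretches of 300 bases around 5 summits are shown because the account below turns on them: the strongest peak of the set, upstream of slp2 at chr2L:3832370-3832669; the peaks before and after h, at chr3L:8672499-8672798 and chr3L:8682965-8683264; the call at the start of opa, just under the threshold, at chr3R:4852497-4852796; and the call past ftz that both replicates ranked high, at chr3R:6869366-6869665. All are plus-strand sequence of Release 6 (dm6), from 150 bases before the summit to 149 after it, and none overlaps an annotated exon. Capitals mark matches to the motifs that are spelled out further on: the Motif 1 core promoter element in slp2, the PHO core in h, opa and ftz, a GATA site in each h stretch, and a TATA box in ftz.
slp2 upstream: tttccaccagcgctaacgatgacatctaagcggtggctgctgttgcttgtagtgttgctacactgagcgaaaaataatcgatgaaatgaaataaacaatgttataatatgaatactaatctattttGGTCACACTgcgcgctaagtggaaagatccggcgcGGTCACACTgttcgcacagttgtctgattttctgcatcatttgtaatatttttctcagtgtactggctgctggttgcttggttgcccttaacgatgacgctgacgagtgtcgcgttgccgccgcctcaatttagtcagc
h upstream: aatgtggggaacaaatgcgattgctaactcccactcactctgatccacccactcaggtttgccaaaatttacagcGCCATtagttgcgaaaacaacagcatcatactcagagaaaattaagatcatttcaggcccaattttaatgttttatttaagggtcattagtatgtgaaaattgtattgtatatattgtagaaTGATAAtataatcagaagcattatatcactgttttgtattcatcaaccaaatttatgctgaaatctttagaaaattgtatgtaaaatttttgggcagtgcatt
h downstream: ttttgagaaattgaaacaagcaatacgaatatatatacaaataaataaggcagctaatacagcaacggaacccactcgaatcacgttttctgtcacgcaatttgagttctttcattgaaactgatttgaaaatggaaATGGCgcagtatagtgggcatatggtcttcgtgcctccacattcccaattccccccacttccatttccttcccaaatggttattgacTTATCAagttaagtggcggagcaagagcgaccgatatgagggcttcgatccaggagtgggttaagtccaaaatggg
opa start: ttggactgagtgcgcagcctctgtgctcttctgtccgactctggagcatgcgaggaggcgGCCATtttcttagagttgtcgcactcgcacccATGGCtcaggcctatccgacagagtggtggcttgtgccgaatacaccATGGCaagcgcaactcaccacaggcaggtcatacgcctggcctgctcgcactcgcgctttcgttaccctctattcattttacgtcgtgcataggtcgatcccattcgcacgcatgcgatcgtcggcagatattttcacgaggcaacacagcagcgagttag
ftz downstream: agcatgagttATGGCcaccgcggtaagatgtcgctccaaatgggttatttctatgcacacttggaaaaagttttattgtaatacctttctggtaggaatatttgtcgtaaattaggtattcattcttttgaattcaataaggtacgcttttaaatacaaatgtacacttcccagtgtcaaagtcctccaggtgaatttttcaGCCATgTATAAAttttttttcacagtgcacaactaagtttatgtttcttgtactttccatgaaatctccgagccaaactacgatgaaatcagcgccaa

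Each call in the lists carries the peak signal of the authors' caller, which ranks calls within a list and cannot be compared in size between lists. Rank 1 is the strongest call. The optimal list was identical to the 5321 strongest calls of the pooled list, which was made on both replicates together, so its lowest signal of 77.9 serves as the threshold. The pooled list and each replicate's list ran on to 30000 calls and include background. With these weaker calls counted, 8 of the 10 genes had a pooled call inside or within 5 kb, beside 82.6% of all genes, and 7 of 10 had 1 within 1000 bp of a TSS, beside 62.1% of all genes. The shares of genes with any pooled call were thus close to those of all genes. With calls of −log10 q above 2 alone, 2 of 10 genes (opa and en) had a start-site call, beside 40.1% of all genes. The surroundings of the 10 genes held 2.09 pooled calls and 0.348 optimal summits per 10 kb, against 2.24 and 0.397 over the chromosome arms.

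**Figure D1:**
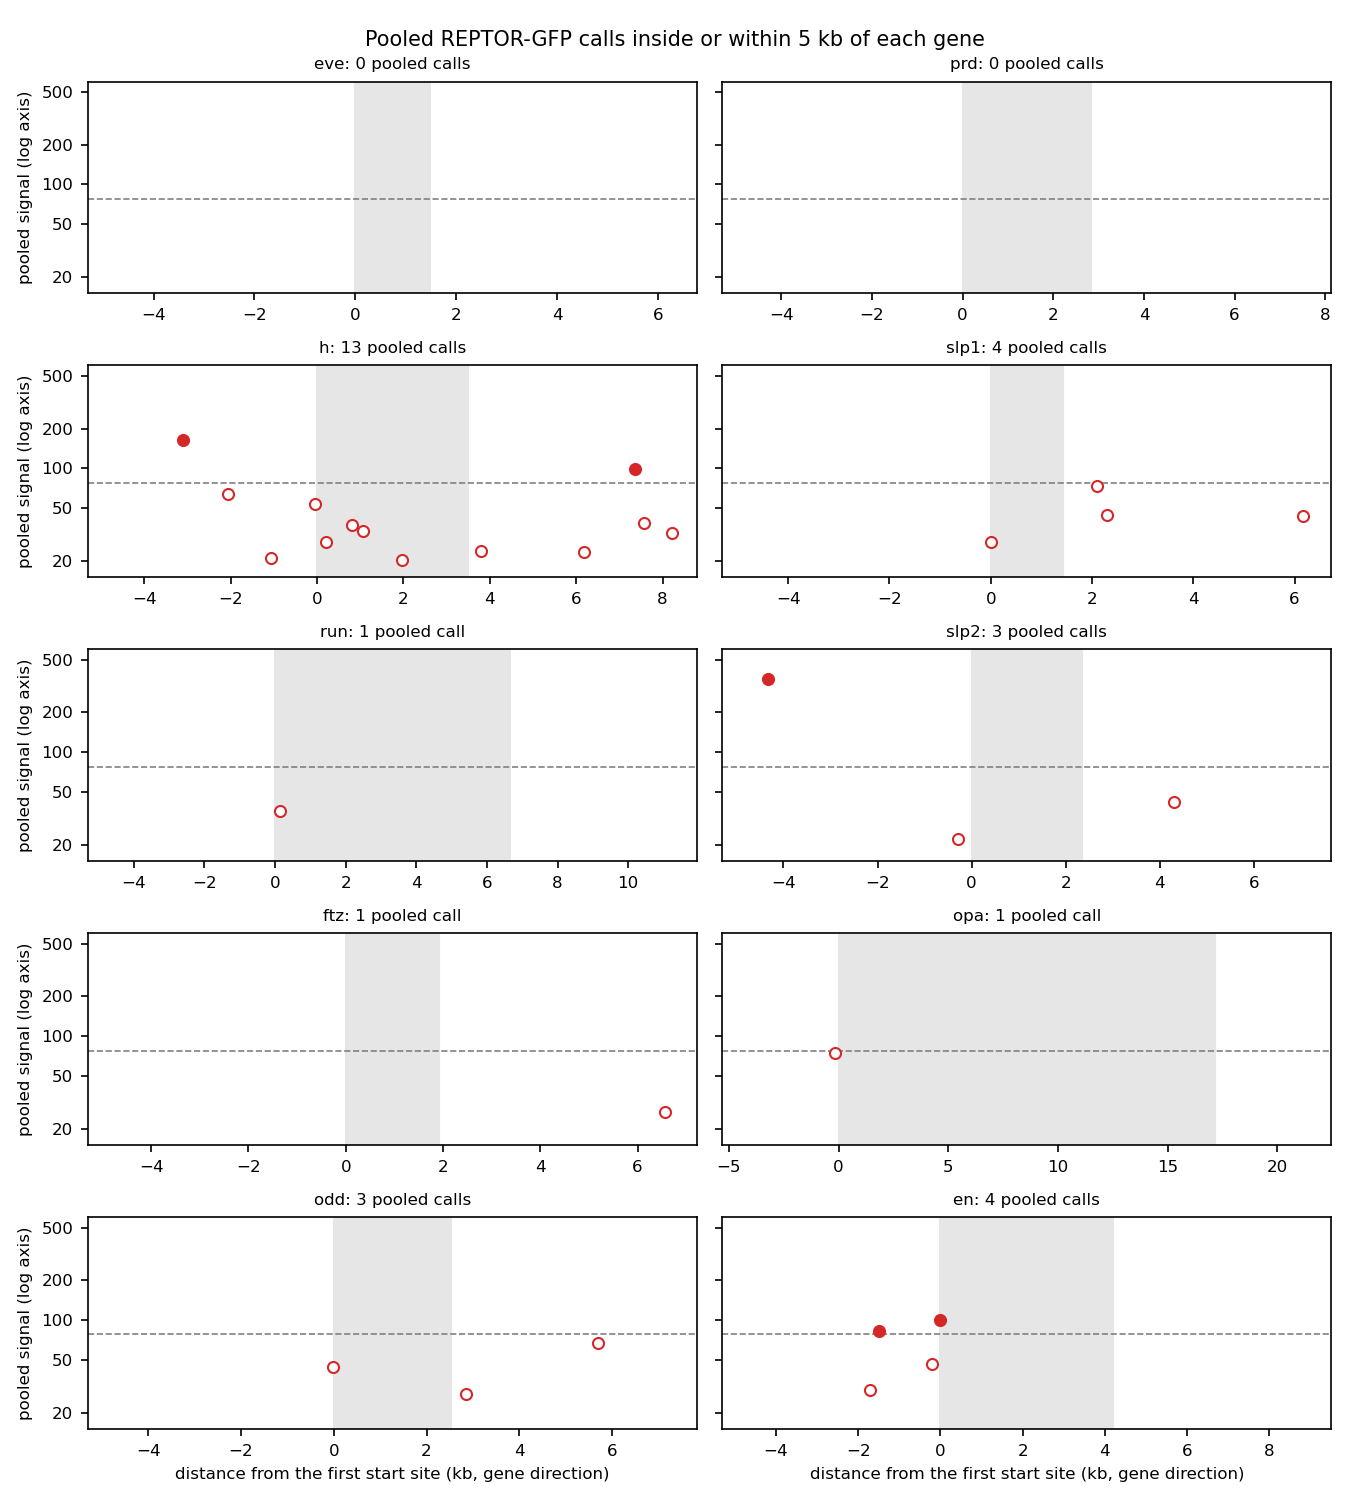
Pooled calls by distance of the summit from the first start site (x axis, kb, in the direction of the gene) and pooled signal (y axis, log scale) for each of the 10 genes, with the gene span in grey, the lowest optimal signal of 77.9 as a dashed line, and optimal peaks filled. The 5 filled points are at h, slp2 and en, h has 13 calls, 4 of them inside the gene and the rest on both sides of it, and eve and prd have none.

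Among the primary pair-rule genes, even-skipped stood apart by having nothing called. eve (FBgn0000606, chr2R:9979319-9980795, plus strand) encodes a homeodomain repressor. No call of any of the 4 lists had its summit inside or within 5 kb of it, which was so for 11.5% of all protein-coding genes and for 1 of these 10. The optimal summit nearest to it lay 8164 bp upstream, inside another gene, CG12134, with a pooled signal of 78.9 and rank 5242, close to the end of the list.

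The hairy locus had the most calls of the set. h (FBgn0001168, named hry in the annotation, chr3L:8675759-8679253, plus strand) encodes a bHLH repressor that works with the corepressor Groucho. It had 13 pooled calls inside or within 5 kb, in 10 separate regions once overlapping calls were joined, and 5.79% of all genes had as many calls or more. Its strongest peak lay 3110 bp upstream of the start, in intergenic sequence, with a pooled signal of 164 and rank 1603. In replicate 1 the overlapping call had a signal of 95.4 and rank 1258, and in replicate 3 a signal of 69.3 and rank 2379. The second optimal peak lay on the other side, 3862 bp past the end of the gene, with a pooled signal of 99.6 and rank 3769. Its replicate ranks were close to each other, 3867 in replicate 1 and 3553 in replicate 3. The flanking peaks were therefore called in both replicates, and h was the gene nearest to each of them.

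The start site of h differed from these flanks. The pooled call there, 51 bp upstream of the TSS, had a signal of 53.4 and rank 8688. Replicate 1 had an overlapping call with signal 45.2 and rank 4412, which was among its 5321 strongest. Replicate 3 had no call overlapping it, and its strongest call within 1000 bp of a TSS of h lay in the intron, 631 bp past the nearer TSS, with signal 32.3 and rank 7820. Another pooled call 2066 bp upstream, with signal 64.0 and rank 6926, was matched in both replicates, at ranks 7576 and 8101.

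The remaining primary genes had only calls below the threshold. runt, run (FBgn0003300, chrX:20690670-20697321, plus strand), encodes the founding Runt-domain factor and had 1 pooled call, 135 bp past its start in the 5′ UTR, with signal 35.8 and rank 14437. That call was matched in replicate 3 alone, at signal 29.7 and rank 8846. The only call of replicate 1 near run lay elsewhere, 494 bp before the second TSS, with signal 12.8 and rank 23768. The replicates thus did not share a site at run.

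odd-skipped, odd (FBgn0002985, chr2L:3604224-3606756, minus strand), encodes a zinc finger repressor and had 3 pooled calls. The strongest lay 3170 bp past the end of the gene, with signal 67.2 and rank 6484, and was found in both replicates at ranks 7797 and 7609. The call at the start, 7 bp upstream of the TSS, had signal 43.9 and rank 11052. It overlapped a call of replicate 1 at rank 7651, with its summit at the same base. The strongest overlapping call of replicate 3 had rank 13780, with its summit 273 bp away. A weaker call of replicate 3 lay closer, 48 bp upstream of the TSS, at rank 18396. Both pooled calls thus overlapped calls in each replicate, and none of these was among the 5321 strongest of its replicate.

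At fushi tarazu the replicate lists and the pooled list held different calls. ftz (FBgn0001077, chr3R:6864324-6866244, plus strand) encodes a homeodomain factor that acts with the nuclear receptor Ftz-F1, and it had no call in any list within 1000 bp of its TSS. Replicate 1 had a call 3272 bp past the end of the gene with signal 54.7 and rank 3346, and replicate 3 had a call 3291 bp past it with signal 43.5 and rank 5081. These calls overlapped each other and were among the 5321 strongest of both replicates, yet no pooled call overlapped them, so the site is missing from the optimal list. Of the 4151 calls among the 5321 strongest of replicate 1 that overlapped a call among the 5321 strongest of replicate 3, 14 (0.337%) had no overlapping pooled call, and the ftz site was 1 of them. The single pooled call near ftz lay farther on, 4642 bp past the gene, with signal 26.5 and rank 21208. Counting instead the genes with a call among the 5321 strongest of each replicate inside or within 5 kb gave 3 of 10, h, ftz and slp2, beside 49.9% of all genes.

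**Figure D2:**
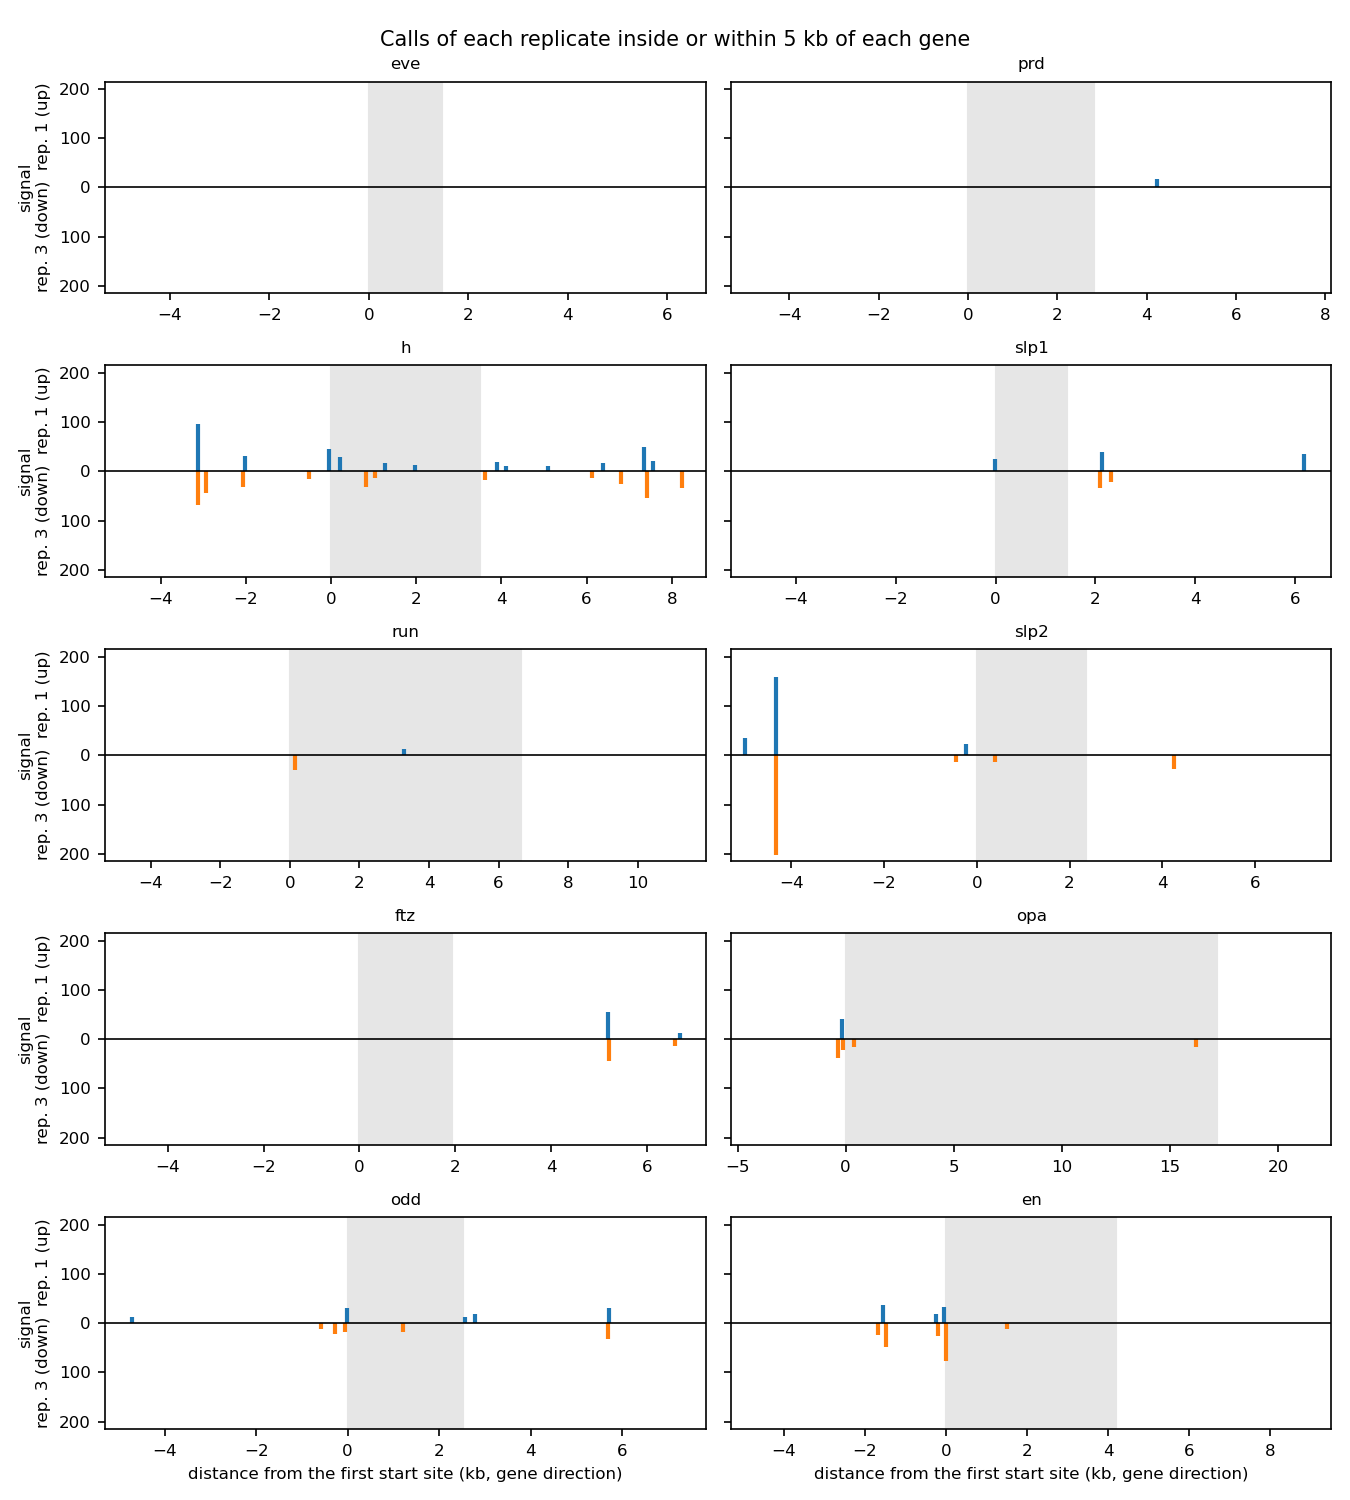
Calls of replicate 1 (upward bars) and replicate 3 (downward bars) by distance from the first start site (x axis, kb, in the direction of the gene) and signal in that replicate's own list (y axis), with the gene span in grey. The call upstream of slp2 is tall in both replicates (158 and 201), the call past ftz appears in both (54.7 and 43.5), and the bars at run do not line up.

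Of the secondary pair-rule genes, paired had almost no calls and sloppy-paired had the strongest of the set. prd (FBgn0003145, chr2L:12082995-12085827, minus strand) encodes a factor with a paired domain and a homeodomain. Its only call was in replicate 1, 1402 bp past the end of the gene in an exon of lncRNA:CR44590, with signal 17.0 and rank 16376. The pooled list and replicate 3 had none inside or within 5 kb. The nearest optimal summit lay 10732 bp upstream of prd, inside Mt2.

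slp1 (FBgn0003430, chr2L:3825675-3827099) and slp2 (FBgn0004567, chr2L:3836840-3839185) encode related forkhead-domain factors and sit in tandem on the plus strand, 9741 bp apart. The strongest peak of the whole set lay between them, 4320 bp upstream of slp2 and 5421 bp past the end of slp1, with a pooled signal of 360 and rank 311. It had signal 158 and rank 423 in replicate 1, and signal 201 and rank 250 in replicate 3, and the 3 summits fell within 3 bp of each other. The best call within 5 kb of a gene was as strong or stronger at 6.61% of all genes. The distance limit assigns this peak to slp2, and the same summit was also the optimal summit nearest to slp1.

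The start sites of the tandem genes carried far weaker calls than the peak between them. The call 4 bp upstream of the slp1 TSS had a pooled signal of 27.7 and rank 20110, and was found in replicate 1 at rank 10170 but not in replicate 3. The call 286 bp upstream of slp2 had a pooled signal of 22.0 and rank 26791. It overlapped calls ranked 11215 in replicate 1 and 29837 in replicate 3. The next strongest call at slp1 lay 676 bp past the end of the gene, 431 places under the threshold with signal 73.7 and rank 5752, and was found in both replicates at ranks 5323 and 7537.

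odd-paired came closest to the threshold without passing it. opa (FBgn0003002, chr3R:4852813-4869979, plus strand) encodes a zinc finger factor of the Zic family that shifts the pattern from double-segment to single-segment units. Its 1 pooled call lay 166 bp upstream of the TSS with signal 75.0 and rank 5597, which was 2.91 in signal and 276 places under the last optimal peak. Replicate 1 had a call with its summit at the same base, signal 41.1 and rank 5059, inside its 5321 strongest. Replicate 3 had signal 38.6 and rank 6056, outside them, with the summit 173 bp farther upstream. A weaker call of replicate 3 lay closer to the pooled summit, 136 bp upstream of the TSS, with signal 21.7 and rank 14080. By the 5321 strongest calls of a single replicate, opa had a start-site call in replicate 1 and none in replicate 3.

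engrailed was the gene of the set with an optimal peak at its own start. en (FBgn0000577, chr2R:11524006-11528210, minus strand) encodes a homeodomain repressor that marks posterior compartments, and the DNA just upstream of it is known for Polycomb response elements. A first optimal peak was centred 3 bp past the TSS, in the 5′ UTR, with a pooled signal of 101 and rank 3689. The second lay 1496 bp upstream, with a pooled signal of 82.5 and rank 4933, near the end of the list. Both were stronger by rank in replicate 3: the start-site peak had rank 2020 there and 7199 in replicate 1, and the upstream peak had rank 4222 there and 5864 in replicate 1. Neither was among the 5321 strongest calls of replicate 1. Each of the peaks had a weaker pooled call overlapping it on its upstream shoulder, at signals of 46.9 and 29.5, so the 4 pooled calls at en formed 2 regions. Replicate 3 had a separate weaker call at each shoulder, at ranks 11152 and 11385. Replicate 1 had such a call at the start-site shoulder alone, at rank 13839.

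Across the 10 genes, the strongest pooled call within 1000 bp of a TSS had a median signal of 43.9 (rank 11052) over the 7 genes with such a call, against 75.4 (rank 5554) over all 8665 genes with one. The medians lay closer together in the replicates' own lists, at 30.5 (rank 7651) against 38.5 (rank 5544) in replicate 1 and 31.0 (rank 8333) against 39.6 (rank 5826) in replicate 3. In order of signal the genes were en, opa, h, odd, run, slp1 and slp2, from 101 down to 22.0, and a call at least as strong was found at 23.0% of all genes for en, 31.2% for opa and 60.4% for slp2. The replicates placed these neighbours differently. The order was h, opa, en, odd, slp1, slp2 and run in replicate 1, with h at rank 4412, opa at 5059 and en at 7199. It was en, opa, h, run, odd and slp2 in replicate 3, where slp1 had no call. A call of each replicate within 1000 bp of a TSS was found for 6 genes, h, run, odd, slp2, opa and en, beside 56.2% of all genes, and the calls of the replicates overlapped over at least 0.5 of the shorter call at odd, slp2, opa and en, 4 of the 10 genes, beside 52.0% of all genes.

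**Figure D3:**
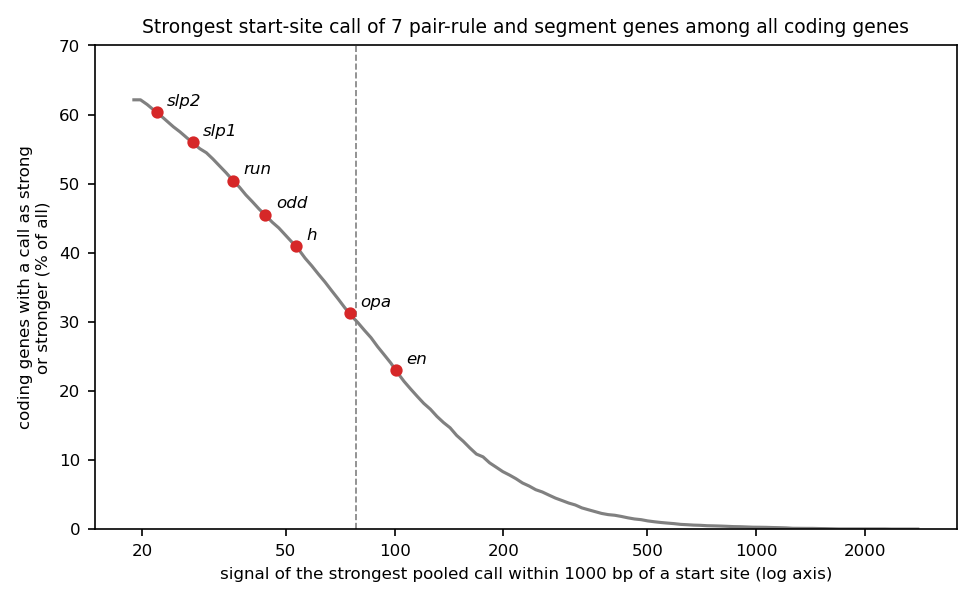
Share of all protein-coding genes (y axis, %) whose strongest pooled call within 1000 bp of a start site is at least as strong as the signal on the x axis (log scale), with the 7 genes that have such a call marked and the lowest optimal signal of 77.9 dashed. en, at 101, is the only marked gene to the right of the threshold, opa lies just left of it, and slp2 is at the low end.

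Of the 30 pooled calls at the 10 genes, 19 (63.3%) overlapped a call in both replicates, 6 in replicate 1 alone, 4 in replicate 3 alone and 1 in neither. Over the whole pooled list the share in both was 67.4%. All 5 calls that were optimal peaks were found in both replicates. Among the 25 calls below the threshold, 14 (56.0%) were, against 60.4% of all pooled calls below it. The weaker calls at these genes were matched between replicates about as often as weak calls elsewhere. Joined where they overlapped, the 30 calls made 24 regions, and 6 of the 30 summits lay inside a gene of the set.

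The windows of 300 bases around the 5 optimal summits were searched on both strands for 14 short motifs, with overlapping matches counted. The slp2 peak held GGTCACACT, the Motif 1 core promoter element bound by the zinc finger protein M1BP, at 2 places on the plus strand, shown in capitals in the sequence above. They start 24 bp before and 11 bp after the summit, with 26 bases between them. Motif 1 was found around 4.36% of all optimal summits, and 7 of the 5321 (0.132%) held 2 or more matches. This pattern was picked out after its values were seen. Of the 1537 optimal summits more than 1000 bp from every annotated TSS, 2 held Motif 1, and the slp2 peak was the only 1 of them with 2 matches. The match is a description of the sequence and does not show which factor binds there.

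The peaks at en were rich in GAGAG, the core of the sites bound by GAGA factor. There were 12 matches around the start-site peak, a number reached around 0.301% of optimal summits (16 of 5321), and 6 around the upstream peak, reached around 2.65% (141 of 5321). At least 1 match was found around 35.4% of summits. The cut-offs of 12 and 6 are the counts at these peaks, picked out after the values were seen. The matches describe the sequence and do not show which factor binds there. The upstream peak also held 2 matches to GCCAT, the core of sites for the Polycomb group protein PHO. At least 1 GCCAT was found around 40.9% of summits, and 2 or more around 10.5%. The same peak held 1 GATA site (NGATAN with A or T at the first place and A or G at the last; 45.5%) and 1 E-box (CAGCTG; 17.5%). Each h peak held 1 GCCAT and 1 GATA site and no GAGAG. Outside the optimal list, the opa window held 3 GCCAT, a number reached around 2.31% of optimal summits. The ftz window held 2 GCCAT and 1 TATA box (TATAAA; 36.9%). The window of the call past the end of slp1 held 3 GAGAG (reached around 8.29% of optimal summits), 1 GCCAT and 1 GATA site. The windows at the starts of odd and h each held 1 GAGAG and 1 match to CAGGTAG, the site of the early activator Zelda. CAGGTAG was found around 1.47% of optimal summits, and these 2 calls were weaker than those. The CAGGTAG matches lay 132 bp (odd) and 67 bp (h) from the summit, so neither was within 50 bp of it. Only some of the calls outside the optimal list were searched. The odd window also held 1 E-box, and the h window 7 matches to CACACA. At least 1 CACACA was found around 26.6% of optimal summits, and 6 or more around 1.62%. These cut-offs, too, were picked out after the counts were seen.

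The Zelda site, the TATA box and the CACACA motif, described above for windows outside the optimal list, had no match around the 5 optimal summits. The motifs not named so far had none there either. They were the DRE (TATCGATA; found around 7.72% of all optimal summits), the CRE (TGACGTCA; 0.677%) and its half-site (TGACGT; 7.09%), the AP-1 site (TGANTCA with C or G at the open place; 2.88%), a CTCF site (AGNTGGCGC with A or G at the open place; 2.16%) and a FOXO site (GTAAACA; 10.1%). The CRE and AP-1 sites are typical for bZIP factors, and these counts say only that their letters were not in these windows. The base composition varied widely among the windows: G and C made up 55.3% and 50% at en, 45.0% at slp2, and 32.7% and 42.0% at the upstream and downstream peaks of h, beside a median of 39.0% around all optimal summits.

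The genes around the pair-rule step of the hierarchy were counted in 4 further lists. Among partners and relatives of the pair-rule proteins, 9 of 13 had an optimal summit within 1000 bp of a TSS (69.2%, beside 30.3% of all genes). They included Bro, a partner of Runt-domain proteins, with a pooled signal of 466 (rank 179), gro, the corepressor that Hairy recruits, at 445 (rank 199), bowl, a relative of odd, at 328 (rank 390), and Bgb, the other Runt partner, at 196 (rank 1172). The others were emc, ftz-f1, whose product partners Ftz, Ten-m, drm, a further odd relative, and hth, a cofactor of Hox proteins, with pooled signals from 138 down to 82.1. D, exd, sob and dpn had none. Of the 10 pair-rule and segment genes themselves, 1 (en) had such a summit, and of the 5 primary pair-rule genes among them 0 had 1.

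Downstream and upstream of the pair-rule genes the counts were lower. Of 18 segment polarity genes, 3 (16.7%) had an optimal summit at a TSS: nkd, an inhibitor of Wingless signalling, at 157 (rank 1770), wg, the Wingless ligand itself, at 107 (rank 3380), and smo, the Hedgehog signal transducer, at 94.8 (rank 4054). inv, the neighbour and relative of en, had its strongest start-site call at 51.6 (rank 9051). Of 14 maternal and gap genes, 2 (14.3%) had 1: bcd at 191 (rank 1219) and nanos at 189 (rank 1247), the anterior and posterior maternal determinants. None of the 8 Hox genes had 1, where 30.3% of all genes did. A weaker pooled call at a TSS was found for 7 of the 8, beside 62.1% of all genes. An optimal summit inside or within 5 kb was found for 4 of the 8, beside 55.3% of all genes. The lists are small, their members were chosen with results of these data known, and nearby genes can share a call, so no test was made between them.

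**Figure D4:**
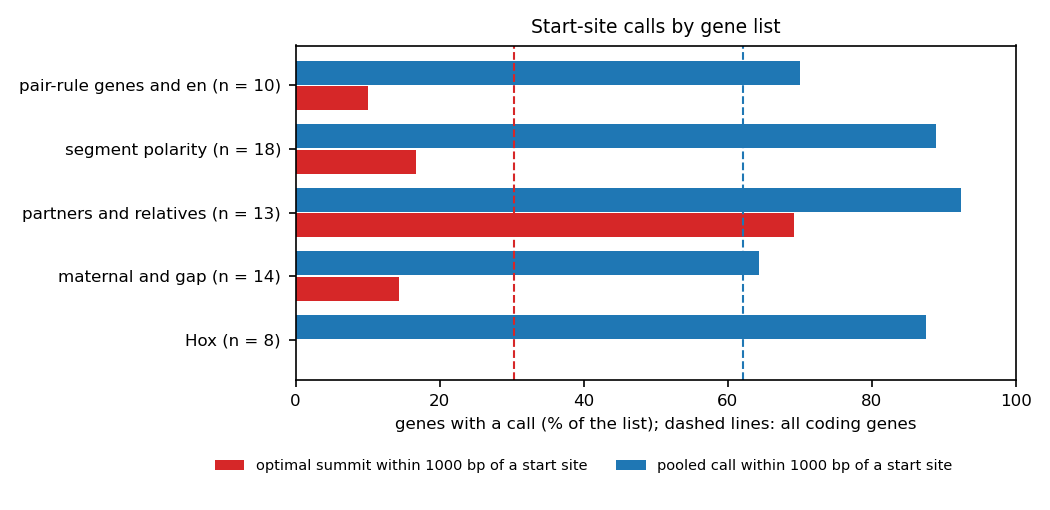
Share of each gene list (x axis, %) with an optimal summit (red) or any pooled call (blue) within 1000 bp of a start site, with the number of genes in parentheses and the shares of all protein-coding genes, 30.3% and 62.1%, as dashed lines. The 10 pair-rule and segment genes stand at 10% for optimal summits, the partners and relatives at 69.2%, and the Hox genes at 0.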

How the data were processed

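The data were peak lists of 2 biological replicates of 1 group. Calls were made on each replicate and on both together against a control file, as stated in the notes that the authors deposited, and an optimal list was kept at a threshold on the irreproducible discovery rate. Aligner and caller are not named in any source used here, and read depth is unknown. No interval is given with the shares. The dm6 lists were used. The signal deposited by the authors ranks calls within a list. The −log10 q deposited by the authors served only for an alternative. The third column used, other than these, was the summit offset deposited by the authors.

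Genes and TSSs came from the Ensembl 115 annotation and sequence from the Release 6 reference, inside which all dm6 calls lay. A summit counted for a gene inside it or within 5 kb, and for a TSS within 1000 bp. A pooled call was matched to the strongest replicate call overlapping it by at least 1 bp. Counts were made with Python 3.11.15, pandas 2.3.3 and numpy 2.4.6, and tested on planted summits. The members and lists were chosen with earlier results of these data known. The text names all 10 genes, list genes with an optimal summit near a TSS, and the strongest calls near each gene. Other genes named (inv, and list genes with no such summit) were chosen after their values were seen. The labels do not say whether the replicates came from separate collections.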

Additional observations from a re-analysis of the deposited data

How the results depend on the processing

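The counts were repeated with other windows, lists and assignments, and each replicate was left out in turn. For the optimal summits the 5321 strongest calls of the other replicate were then taken. For the pooled calls and their ranks all 30000 calls of the other replicate were taken. The 5 optimal summits became 2 within 2 kb of the genes and 2 with the 2660 strongest optimal peaks, and lay between 6 and 7 without a replicate. The 3 genes with an optimal summit within 5 kb became 1 within 2 kb (en), beside 42.2% of all genes, and 5 within 10 kb (eve and slp1 added), beside 67.1%. They became 4 without either replicate (ftz and h and slp2 each time, with en from replicate 3 and opa from replicate 1). The share of all genes was then 54.5% without replicate 1 and 55.9% without replicate 3. The 1 gene with a start-site summit became 0 with the strongest optimal peaks, beside 17.5% of all genes, and ranged from 1 to 2 without a replicate. It was en from replicate 3, beside 29.6% of all genes, and h and opa from replicate 1, beside 30.4%, so en rests on replicate 3. The 7 genes with a pooled start-site call became 2 (opa and en) for calls with −log10 q above 2, beside 40.1% of all genes. They were 6 without replicate 1, beside 63.0% of all genes, and 7 without replicate 3, beside 62.5%. The median rank of the strongest start-site call, 11052, ranged from 7651 to 8333 in the replicates' own lists, over the genes with a call there. With each summit given to its nearest gene alone the 3 genes stayed the same, but the share of all genes fell from 55.3% to 24.3%, so that the 10 genes went from below to above it. The remaining alternatives left these counts within 1.5 times. Within 50 bp of the summit the start-site peak of en held 6 GAGAG in place of 12, and the slp2 peak kept 2 Motif 1. The cause of these shifts was not tested. No paired analysis was possible because the series has a single group. Read depth is unknown, so a gene without a call is not shown to be unbound.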
